A study of Mus musculus with 19 samples.

Results

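The comparison sets mouse hippocampal neurons driven to fire against the same kind of culture kept silent, read as RNA. It covers the 3 RNA-seq libraries labelled Bic/4AP and the 3 labelled TTX. Genes were kept where at least 3 of these 6 libraries reached 1 RPKM (reads per kilobase of transcript and per M reads of the library), which holds for 13959 of 24058 gene names. At the edge of that filter, the third-highest of the 6 values was 1.0002 RPKM for Atp1a4 and 1.001 RPKM for Ltk, just inside, and 0.99933 RPKM for Stard8 and 0.99905 RPKM for Scel, just outside. Of the genes kept, 264 passed only through the 3 Bic/4AP libraries and 488 only through the 3 TTX libraries, so a difference in them follows in part from the filter. Among genes given with values below, Baz1a, Serpinb2 and Ttr passed only through Bic/4AP, and Bbc3, Bcdin3d and Gpank1 only through TTX. Among genes named below without values, Kl and Clic6 passed only through Bic/4AP, and Cspg4 and Nfatc4 only through TTX. An adjusted p of such a gene is not separate support for its difference.

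The series joins RNA-seq, DNA methylation and histone marks of such cultures. Neurons came from hippocampus of ICR mouse embryos at day 17 and were kept in culture for 10 days. The excited cultures received bicuculline (Bic), which blocks GABA-A receptors, and 4-aminopyridine (4AP), which blocks voltage-gated potassium channels, for 3 h. The silenced cultures received tetrodotoxin (TTX), which blocks voltage-gated sodium channels and with them action potentials, for a time not given in the sources used here. Both groups are drug-treated, so within this comparison a difference belongs to the pair of treatments and cannot be assigned to either one. The series also holds untreated RNA-seq libraries, which were not used here. Separate cultures are not stated in the labels for libraries of 1 group, so the spread behind each p-value may be technical, and p-values measure nothing beyond it.

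When a neuron fires, calcium enters through NMDA receptors and L-type calcium channels and activates calmodulin-dependent kinases and the MAP kinase pathway. These act on transcription factors already present, such as CREB, SRF and MEF2, which switch on immediate early genes without new protein synthesis. The factors those genes encode, among them the AP-1 proteins, the Egr and Nr4a families and Npas4, then switch on effector genes that act at synapses, in signalling and in secretion.

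The libraries differed in depth and in the shape of their distributions, and both bear on every count below. The reads recovered from the RPKM steps were 4.52, 4.59 and 4.34 M reads with Bic/4AP and 12.6, 11.9 and 9.68 M reads with TTX. For a gene of 1 kb, a single read was thus worth 0.218 to 0.230 RPKM with Bic/4AP and 0.0791 to 0.103 RPKM with TTX. The highest read densities differed less than the depths, at 1151, 1317 and 1114 reads per kb with Bic/4AP and 1554, 1498 and 1415 reads per kb with TTX. Depth and treatment cannot be told apart in this design. As deposited, the median log2 change of all genes, Bic/4AP minus TTX on log2(RPKM + 1), was -0.36, and it followed the expression level: -0.43 in the lowest decile by mean RPKM, -0.89 in the third and 0.51 in the highest. A slope of the same sign lay between TTX library 3 and TTX library 1, which share the treatment, at -0.20 in the lowest decile and 0.12 in the highest. Thinning all libraries to the reads of the smallest left the medians at -0.35 in the lowest decile, -0.88 in the third and 0.52 in the highest.

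**Figure D1:**
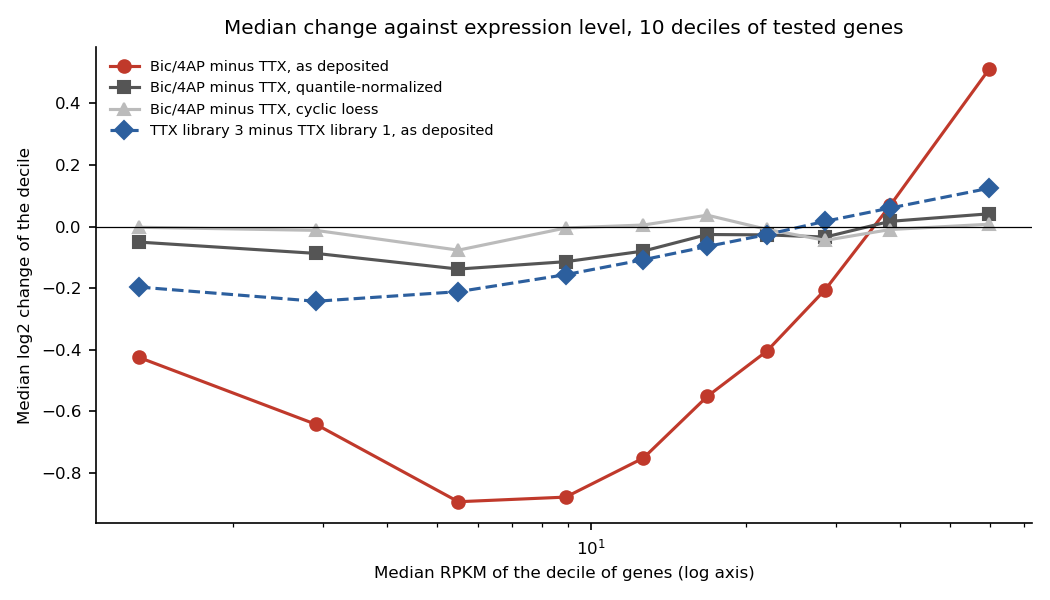
Median log2 change of the genes in each of 10 expression deciles (vertical axis) against the median RPKM of the decile (horizontal, log axis), for Bic/4AP minus TTX under 3 scalings and for TTX library 3 minus TTX library 1. The deposited values run from -0.89 in the third decile to 0.51 in the tenth, while both normalized series stay between -0.14 and 0.04.

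Normalization changed the balance of calls. With the deposited values, limma called 3639 genes higher (26.1%) and 7975 lower (57.1%) with Bic/4AP at an adjusted p of 0.05. Quantile normalization, which gives all libraries the same distribution, moved the median log2 change to -0.04, a shift of 0.33, and gave 5169 genes higher (37.0%) and 5650 lower (40.5%). Cyclic loess normalization moved it to -0.01, a shift of 0.35, and gave 5309 higher (38.0%) and 5358 lower (38.4%). Called in 1 direction under all 3 scalings were 2945 genes higher (21.1%) and 4741 lower (34.0%), and "rose" and "fell" are used below only of such genes. At 2-fold or more under all 3 scalings stood 444 genes higher (3.18%) and 635 lower (4.55%). At 2-fold or more as deposited, 534 genes were called higher (3.83%) and 3020 lower (21.6%). The values of the 6 libraries fell into separate ranges by group for 11761 genes (84.3%). Among the genes given with values below, the ranges overlapped for Tet1 alone. Shifting each library to a common median, which leaves the dependence on level in place, turned the split to 7075 higher and 3934 lower, and it is named below where it turns the sign of a gene given with values. Log2 changes of single genes are given relative to the median gene, that is, with 0.36 added to the deposited change, and a class is described by its median on this relative scale (0 for all genes) and after quantile normalization (-0.04 for all genes). The SE and adjusted p beside a relative log2 change are those of the deposited change, tested against 0. The relative change itself was not tested. Where quantile or loess normalization brought the log2 change of a gene that rose or fell to more than 1.5 times under the deposited one, both are given beside its values as normalized log2 changes, quantile first. A pair of percentages after the counts of a class gives the shares of its tested members that rose and fell, to be read against the 21.1% and 34.0% of all genes, and no class was tested against them. Both shares depend on level. They were 8.60% and 38.0% in the fourth decile (median 8.91 RPKM) and 40.7% and 35.6% in the ninth (38.3 RPKM). In the tenth (59.8 RPKM) they were 41.3% and 4.80%. The shares of all genes thus do not match the level of high classes, such as splicing (median 38.5 RPKM), adhesion (37.0 RPKM) and ribosomal protein genes (42.2 RPKM).

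Of the 8 largest rises, 6 were genes known to respond to neuronal activity. Fosb, which encodes an AP-1 subunit that pairs with Jun proteins, stood at 102, 108 and 115 RPKM with Bic/4AP, against 1.19, 1.27 and 1.26 RPKM with TTX. Its mean with Bic/4AP was 87.2 times that with TTX (relative log2 change 5.97 ± 0.06, adjusted p = 5.74e-12), the largest rise of any gene under the naming rule. Serpinb2, which encodes an inhibitor of plasminogen activators, had 30.7, 29.1 and 54.4 RPKM with Bic/4AP, against 0.773, 0.700 and 0.707 RPKM with TTX. It passed the filter only through the Bic/4AP libraries. Library 3 was the highest of the Bic/4AP libraries for this gene and the other two lay close together (relative log2 change 4.80 ± 0.20, adjusted p = 1.97e-08). Ptgs2, which encodes the prostaglandin synthase COX-2, showed the same order of libraries, at 55.6, 54.9 and 91.7 RPKM with Bic/4AP, against 5.57, 6.82 and 5.14 RPKM with TTX (relative log2 change 3.65 ± 0.17, adjusted p = 3.8e-08). Npas4, Fos and Arc also stood among the 8 largest rises and are described with their classes. DQ267100, which RefSeq types as a small nucleolar RNA, has a length of 71 bases and had 15.6, 6.14 and 16.2 RPKM with Bic/4AP, against 1.11, 0 and 0 RPKM with TTX. Those values rest on 5, 2 and 5 reads with Bic/4AP and on 1, 0 and 0 reads with TTX. Ttr, the transthyretin gene and a marker of choroid plexus, completed the 8 and is given with the cell type markers.

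Of the 8 largest falls, 2, Nupr1 and Kcng1, belong to a class described here. Nupr1, which encodes a stress-induced nuclear protein downstream of ATF4, had 0.706, 2.78 and 1.10 RPKM with Bic/4AP, against 22.5, 16.2 and 18.3 RPKM with TTX (relative log2 change -2.69 ± 0.25, adjusted p = 8.24e-07). Its TTX libraries all lay above its Bic/4AP libraries by several RPKM, although the Bic/4AP values rest on few reads. Cabp7, a calcium-binding protein gene, was at 2.001 ± 1.07 RPKM with Bic/4AP against 22.6 ± 0.467 RPKM with TTX, and Kcng1, which encodes a modifier subunit of Kv2 potassium channels, at 2.05 ± 0.288 RPKM with Bic/4AP against 19.8 ± 2.44 RPKM with TTX. Etfb, which encodes a subunit of the mitochondrial electron transfer flavoprotein, was at 3.05 ± 0.704 RPKM with Bic/4AP against 26.5 ± 2.44 RPKM with TTX, and Bcdin3d, an RNA methyltransferase gene, at 0.526 ± 0.170 RPKM with Bic/4AP against 10.1 ± 1.49 RPKM with TTX. The other three were Gpatch4 (1.23 ± 0.533 RPKM with Bic/4AP against 14.7 ± 1.32 RPKM with TTX), Nat9 (0.980 ± 0.369 RPKM with Bic/4AP against 12.8 ± 0.916 RPKM with TTX) and Gpank1 (0.464 ± 0.0947 RPKM with Bic/4AP against 9.27 ± 0.799 RPKM with TTX). All 8 fell, with relative log2 changes between -2.69 for Nupr1 and -2.40 for Kcng1.

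Most rapid transcription factor genes rose. Of 33 members, all tested, 25 rose and 1, Klf2, fell, which is 75.8% up against 21.1% of all genes. The median relative log2 change was 1.34, or 1.44 after quantile normalization, and 16 members rose by 2-fold or more under all 3 scalings. Npas4, a neuron-specific factor that responds to calcium entry, had 117, 121 and 134 RPKM with Bic/4AP, against 6.35, 6.46 and 8.07 RPKM with TTX. The TTX values reached at most 8.07 RPKM and the Bic/4AP values were at least 117 RPKM (relative log2 change 4.34 ± 0.08, adjusted p = 3.99e-10). Fos, which encodes the founding AP-1 subunit, had 180.4, 179 and 195 RPKM with Bic/4AP, against 14.1, 14.9 and 16.5 RPKM with TTX. The TTX libraries were thus not empty of Fos RNA, and the mean with Bic/4AP was 12.2 times that with TTX (relative log2 change 3.89 ± 0.06, adjusted p = 1.09e-10). Nr4a1, an orphan nuclear receptor gene, had 75.5, 78.7 and 85.1 RPKM with Bic/4AP, against 14.5, 14.0 and 15.2 RPKM with TTX, and Junb, which encodes a partner of Fos in AP-1, had 61.4, 64.4 and 64.8 RPKM with Bic/4AP, against 16.1, 15.4 and 14.4 RPKM with TTX. Both were chosen after their values had been seen, because their promoters are printed below, and both sets of libraries lay apart (relative log2 changes 2.73 ± 0.05 and 2.35 ± 0.05). Atf3, a stress and injury responsive bZIP factor gene, rose to 38.9 ± 8.85 RPKM with Bic/4AP against 12.9 ± 1.05 RPKM with TTX. Myc and Srf were lower as deposited, at 14.2 ± 1.38 RPKM with Bic/4AP against 17.4 ± 0.471 RPKM with TTX and at 8.07 ± 0.376 RPKM with Bic/4AP against 13.9 ± 0.922 RPKM with TTX, but their log2 changes were 0.27 and 0.01 after quantile normalization and 0.33 and 0.10 after cyclic loess normalization.

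Most promoters of these factors hold a short motif that CREB recognizes. The CRE half-site TGACG, or CGTCA on the other strand, is the core of the sites that CREB family factors bind. In windows of 300 bases, from 250 before to 50 after the RefSeq start, it was present in 19 of the 24 rapid factor genes that have a window, or 79.2%. The share was 35.1% of the 10831 tested genes with a window and 23.0% of 27025 RefSeq genes. Among activity effectors 10 of 25 windows held it (40%), among genes higher by 2-fold or more under all 3 scalings 90 of 308 (29.2%), and among those lower by as much 144 of 495 (29.1%). The full palindrome TGACGTCA, which contains the half-site on both strands, was in 1 of the 24 rapid factor windows, that of Maff, and in 3.63% of tested genes. The AP-1 site TGANTCA was in 2 of the 24 (8.33%), against 5.91% of tested genes, and in 5 of 25 effectors (20%). These motifs were searched on both strands and the half-site was chosen after the windows of this class had been seen, so the shares are a description without a test, and a match is not evidence of binding. The 250 bases before the start of 4 rapid factors that rose by 2-fold or more are shown, 5′ to 3′ on the strand of the gene, as RefSeq gives them in build GRCm38.p6, with TGACG and CGTCA in capitals. The windows are chr12:85473640-85473889 (plus strand) for Fos, chr8:84978749-84978998 (minus strand) for Junb, chr15:101266596-101266845 (plus strand) for Nr4a1 and chr19:4989972-4990221 (minus strand) for Npas4.
Fos: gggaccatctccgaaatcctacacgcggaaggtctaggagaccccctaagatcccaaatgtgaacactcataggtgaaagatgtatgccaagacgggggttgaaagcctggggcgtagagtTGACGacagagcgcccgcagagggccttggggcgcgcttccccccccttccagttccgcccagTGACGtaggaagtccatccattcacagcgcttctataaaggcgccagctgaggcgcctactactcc
Junb: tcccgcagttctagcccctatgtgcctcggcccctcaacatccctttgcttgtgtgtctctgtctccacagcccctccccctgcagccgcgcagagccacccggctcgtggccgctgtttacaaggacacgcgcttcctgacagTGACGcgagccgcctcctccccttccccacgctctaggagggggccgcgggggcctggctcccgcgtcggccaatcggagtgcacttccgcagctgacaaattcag
Nr4a1: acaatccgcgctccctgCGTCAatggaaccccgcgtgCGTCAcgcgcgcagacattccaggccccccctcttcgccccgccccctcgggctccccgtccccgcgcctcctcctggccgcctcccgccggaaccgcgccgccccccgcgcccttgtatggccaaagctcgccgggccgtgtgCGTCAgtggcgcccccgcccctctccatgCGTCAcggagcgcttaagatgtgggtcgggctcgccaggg
Npas4: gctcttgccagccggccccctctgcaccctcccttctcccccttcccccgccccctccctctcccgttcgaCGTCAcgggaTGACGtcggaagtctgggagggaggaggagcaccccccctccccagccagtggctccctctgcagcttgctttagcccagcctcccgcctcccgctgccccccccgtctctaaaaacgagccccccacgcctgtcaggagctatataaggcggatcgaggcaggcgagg
The copies lie within 250 bases of the start in all 4, with 4 in Nr4a1, 2 in Fos, 2 in Npas4 and 1 in Junb.

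Most effector genes of activity rose as well. Of 34 measured members, 27 rose and 1, Cgref1, fell (79.4% up), with a median relative log2 change of 1.68 and 1.34 after quantile normalization. Arc, which encodes a postsynaptic protein that removes AMPA receptors from the surface, had 54.0, 58.5 and 73.2 RPKM with Bic/4AP, against 5.33, 5.05 and 3.99 RPKM with TTX. Bic/4AP library 3 was the highest, and the lowest Bic/4AP library was still above every TTX library (relative log2 change 3.80 ± 0.11, adjusted p = 5.77e-09). Bdnf, which encodes brain-derived neurotrophic factor, had 77.4, 76.7 and 78.2 RPKM with Bic/4AP, against 25.6, 27.4 and 28.6 RPKM with TTX. The Bic/4AP libraries agreed to within 2 RPKM for this gene, and the mean was 2.85 times that with TTX (relative log2 change 1.84 ± 0.05, adjusted p = 5.21e-09). Baz1a, which encodes a subunit of ISWI chromatin remodellers, had 10.9, 11.7 and 11.9 RPKM with Bic/4AP, against 0.922, 0.874 and 0.502 RPKM with TTX (relative log2 change 3.20 ± 0.14, adjusted p = 3.09e-08). This low gene of the TTX libraries passed the filter only through the Bic/4AP libraries. Homer1, a postsynaptic scaffold gene with a short activity-induced form that gene-level RPKM do not separate, rose to 72.1 ± 2.51 RPKM with Bic/4AP against 24.1 ± 0.271 RPKM with TTX. Pcsk1, which encodes a prohormone convertase, rose to 72.7 ± 7.49 RPKM with Bic/4AP against 27.6 ± 0.508 RPKM with TTX, and Gadd45b, a growth arrest gene also tied to DNA demethylation, to 44.1 ± 1.11 RPKM with Bic/4AP against 9.70 ± 1.43 RPKM with TTX. Cgref1, a calcium-binding protein gene, fell to 23.4 ± 2.55 RPKM with Bic/4AP against 34.0 ± 1.34 RPKM with TTX, although a median shift turned its log2 change to 0.076. Plk3, a Polo-like kinase gene, was lower as deposited (10.9 ± 0.191 RPKM with Bic/4AP against 17.3 ± 0.413 RPKM with TTX), with log2 changes of -0.0033 after quantile and 0.07 after loess normalization.

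Most genes of brakes on signalling rose. Of 21 MAP kinase phosphatase and Sprouty genes, 16 rose and 2, Dusp8 and Dusp2, fell (76.2% up), with a median relative log2 change of 0.89 and 0.82 after quantile normalization. Errfi1, which encodes an inhibitor of the EGF receptor, had 85.5, 85.3 and 102 RPKM with Bic/4AP, against 25.9, 25.5 and 24.4 RPKM with TTX (relative log2 change 2.16 ± 0.07, adjusted p = 8.14e-09). Dusp1, which encodes a phosphatase of nuclear MAP kinases, had 69.5, 73.5 and 68.4 RPKM with Bic/4AP, against 22.4, 23.1 and 22.6 RPKM with TTX (relative log2 change 1.95 ± 0.04, adjusted p = 2.12e-09). In both genes the 3 TTX libraries lay within 2 RPKM of each other and far under the Bic/4AP libraries. Sik1, which encodes a kinase that holds CREB coactivators outside the nucleus, rose to 34.7 ± 0.758 RPKM with Bic/4AP against 14.6 ± 0.694 RPKM with TTX. Of 21 genes of RGS proteins and related small GTPases, 11 rose and 1, Rgs14, fell (52.4% up). Rgs2, which encodes a GTPase activator for Gq, rose to 97.3 ± 5.53 RPKM with Bic/4AP against 27.8 ± 1.53 RPKM with TTX, and Gem, which encodes a small GTPase that inhibits voltage-gated calcium channels, to 10.1 ± 1.07 RPKM with Bic/4AP against 1.91 ± 0.145 RPKM with TTX. Rgs14, known in hippocampus for its enrichment in area CA2, fell to 1.76 ± 0.172 RPKM with Bic/4AP against 10.1 ± 1.496 RPKM with TTX (normalized log2 changes -1.37 and -1.22).

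Secreted signals followed. Of 24 neuropeptide and granin genes tested, 13 rose and 4, Cck, Cort, Chga and Chgb, fell (54.2% and 16.7%), and of 41 growth factor and signal genes 25 rose and 4, Vegfb, Pdgfa, Inhbb and Wnt7a, fell (61% and 9.76%). Adcyap1, which encodes the neuropeptide PACAP, had 72.4, 69.6 and 71.5 RPKM with Bic/4AP, against 11.6, 13.0 and 13.1 RPKM with TTX (relative log2 change 2.77 ± 0.05, adjusted p = 5.11e-10). Its lowest Bic/4AP library lay far above its highest TTX library, the widest gap among the peptide genes given here. Npy, which encodes neuropeptide Y, rose to 94.3 ± 2.08 RPKM with Bic/4AP against 49.1 ± 4.14 RPKM with TTX (normalized log2 changes 0.44 and 0.38). The granin genes Chga and Chgb, whose products pack dense-core vesicles, fell to 21.6 ± 0.331 RPKM with Bic/4AP against 33.6 ± 1.08 RPKM with TTX and to 19.1 ± 0.558 RPKM with Bic/4AP against 37.0 ± 0.311 RPKM with TTX. Bmp2, a bone morphogenetic protein gene, rose to 6.09 ± 0.570 RPKM with Bic/4AP against 1.25 ± 0.0662 RPKM with TTX, and the semaphorin genes Sema3a and Sema3c, which encode secreted guidance cues, to 9.28 ± 0.698 RPKM with Bic/4AP against 5.07 ± 0.190 RPKM with TTX and to 28.8 ± 2.78 RPKM with Bic/4AP against 17.4 ± 1.26 RPKM with TTX. Inhbb, which encodes an activin subunit, fell to 4.03 ± 1.21 RPKM with Bic/4AP against 11.2 ± 1.28 RPKM with TTX (normalized log2 changes -0.53 and -0.41), and Wnt7a to 1.75 ± 0.461 RPKM with Bic/4AP against 6.02 ± 1.01 RPKM with TTX (normalized log2 changes -0.74 and -0.67).

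Regulators upstream of the response split. Of 25 genes of the CREB, MEF2, SRF and CRTC systems, 12 rose and 5, Crtc1, Mkl1, Creb3, Elk1 and Nfatc4, fell (48% and 20%). Nfatc4 passed the filter only through the TTX libraries, so its fall follows in part from the filter. Mef2c, a MADS-box factor gene of excitatory neurons, had 91.9, 89.1 and 88.1 RPKM with Bic/4AP, against 38.2, 40.6 and 42.4 RPKM with TTX (relative log2 change 1.50 ± 0.05, adjusted p = 1.68e-08, normalized log2 changes 0.76 and 0.68). Crtc1, which encodes the main CREB coactivator of neurons, had 13.9, 15.7 and 12.2 RPKM with Bic/4AP, against 37.0, 36.8 and 35.6 RPKM with TTX (relative log2 change -0.97 ± 0.08, adjusted p = 6.42e-08). These 2 genes thus moved in opposite directions, each with its libraries apart by group. Mkl1, which encodes a coactivator of SRF, fell to 9.90 ± 0.822 RPKM with Bic/4AP against 20.3 ± 1.49 RPKM with TTX (normalized log2 changes -0.39 and -0.30). Of 22 clock genes, 8 rose and 4, Dbp, Ciart, Tef and Csnk1d, fell (36.4% and 18.2%). Rorb, a nuclear receptor gene, rose to 6.71 ± 0.801 RPKM with Bic/4AP against 1.07 ± 0.285 RPKM with TTX, and Nfil3, a repressor gene of the clock, to 72.1 ± 3.31 RPKM with Bic/4AP against 34.6 ± 2.26 RPKM with TTX, whereas Dbp, which encodes an activator that opposes Nfil3, fell to 1.19 ± 0.227 RPKM with Bic/4AP against 5.44 ± 1.11 RPKM with TTX (normalized log2 changes -1.01 and -0.92), and Ciart, a repressor gene of the clock, to 3.31 ± 0.407 RPKM with Bic/4AP against 9.66 ± 1.26 RPKM with TTX (normalized log2 changes -0.54 and -0.44).

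Genes of glutamate receptors moved both ways and those of the postsynaptic density fell more often than they rose. Of 18 AMPA receptor subunit and partner genes 5, Gria2, Gria3, Gria4, Shisa9 and Frrs1l, rose and 4, Cacng8, Cnih3, Olfm2 and Porcn, fell (27.8% and 22.2%). Of 19 NMDA, kainate and metabotropic receptor genes tested 5, Grik1, Grik2, Grm5, Neto1 and Neto2, rose and 7 fell (26.3% and 36.8%). Gria2, which encodes the subunit that makes AMPA receptors impermeable to calcium, had 65.1, 66.3 and 70.2 RPKM with Bic/4AP, against 39.9, 40.6 and 42.7 RPKM with TTX (relative log2 change 1.06 ± 0.05, adjusted p = 1.86e-07, normalized log2 changes 0.40 and 0.35). Cacng8, which encodes the hippocampal AMPA receptor auxiliary subunit TARP gamma-8, had 7.53, 7.26 and 7.01 RPKM with Bic/4AP, against 24.9, 25.1 and 23.4 RPKM with TTX (relative log2 change -1.26 ± 0.07, adjusted p = 1.28e-08, normalized log2 changes -1.07 and -0.93). The subunit was thus higher and its auxiliary partner lower in the same libraries. Olfm2, an AMPA receptor partner, fell to 23.9 ± 2.01 RPKM with Bic/4AP against 42.8 ± 1.42 RPKM with TTX. Neto2, which encodes an auxiliary subunit of kainate receptors, rose to 57.8 ± 2.24 RPKM with Bic/4AP against 27.2 ± 0.248 RPKM with TTX, and Grm5, the metabotropic receptor mGlu5 gene, to 69.5 ± 0.829 RPKM with Bic/4AP against 42.7 ± 1.49 RPKM with TTX (normalized log2 changes 0.36 and 0.32). The NMDA receptor subunit gene Grin2d fell to 3.20 ± 0.479 RPKM with Bic/4AP against 9.49 ± 0.196 RPKM with TTX (normalized log2 changes -0.56 and -0.47), and Grm2, which encodes a presynaptic metabotropic receptor, to 3.87 ± 1.54 RPKM with Bic/4AP against 11.8 ± 0.584 RPKM with TTX (normalized log2 changes -0.70 and -0.56). Of 27 scaffold genes of the postsynaptic density, 4 rose and 13 fell (14.8% and 48.1%, against 21.1% and 34.0% of all genes). In the eighth decile (28.6 RPKM), near the class median of 30.5 RPKM, 29.1% of genes rose and 43.3% fell. The median log2 change of the class was 0.12 on the relative scale and -0.25 after quantile normalization. The sign of that median therefore depends on the scaling. The members that rose were Homer1, Dlg2, Cnksr2 and Dlg1. Dlgap3, which encodes the scaffold SAPAP3, had 20.1, 19.7 and 18.7 RPKM with Bic/4AP, against 40.5, 40.3 and 43.7 RPKM with TTX (relative log2 change -0.69 ± 0.05, adjusted p = 2.38e-08). Its 3 TTX libraries all lay above its 3 Bic/4AP libraries, and the spread within each group was small. Dlg2, a membrane-associated guanylate kinase gene, rose to 91.6 ± 1.04 RPKM with Bic/4AP against 56.2 ± 3.31 RPKM with TTX (normalized log2 changes 0.13 and 0.10).

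**Figure D2:**
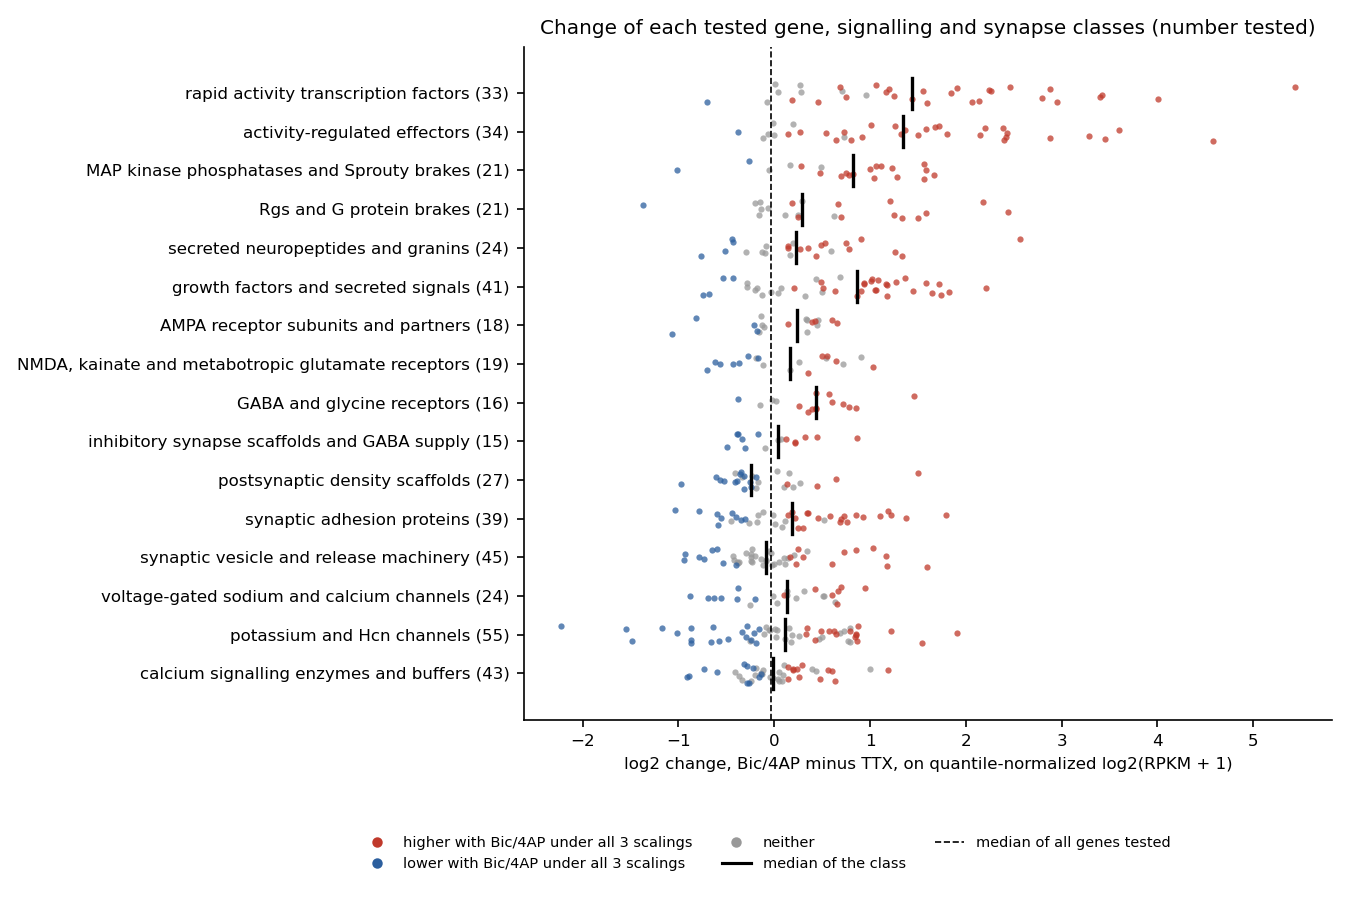
Log2 change of each tested gene, Bic/4AP minus TTX, after quantile normalization, in 16 signalling and synapse classes, coloured by the call under all 3 scalings; bars are class medians and the dashed line is the median of all genes (-0.04). The factor, effector and MAP kinase phosphatase classes have medians of 1.44, 1.34 and 0.82, and the postsynaptic density scaffolds -0.25.

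Most receptor genes of inhibition rose. Of 16 GABA and glycine receptor genes tested, 12 rose and 1, Gabbr2, fell (75% up), with a median relative log2 change of 1.08 and 0.44 after quantile normalization. Gabra2, which encodes a GABA-A receptor subunit, had 114, 116 and 119 RPKM with Bic/4AP, against 58.7, 59.6 and 66.1 RPKM with TTX (relative log2 change 1.27 ± 0.06, adjusted p = 1.07e-07, normalized log2 changes 0.26 and 0.18). The gene is high in these cultures, where the deposited values shift upward with level, and after quantile normalization its log2 change was 0.26. Gabbr2, a metabotropic GABA-B receptor subunit gene, fell to 32.8 ± 0.323 RPKM with Bic/4AP against 41.1 ± 1.52 RPKM with TTX, with its sign turned by a median shift (0.29). Gabrd, the gene of the extrasynaptic delta subunit, was lower as deposited alone (11.8 ± 2.63 RPKM with Bic/4AP against 18.2 ± 0.516 RPKM with TTX). Of 15 genes of inhibitory scaffolds and GABA supply, 6 rose and 6 fell (40% and 40%). Both GABA-synthesizing enzyme genes rose. Gad1 had 116, 117 and 123 RPKM with Bic/4AP, against 60.3, 62.4 and 69.9 RPKM with TTX (normalized log2 changes 0.22 and 0.13), and Gad2 had 109, 105 and 118 RPKM with Bic/4AP, against 50.3, 53.2 and 57.9 RPKM with TTX (normalized log2 changes 0.45 and 0.38). Slc32a1, which encodes the transporter that loads GABA into vesicles, had 30.6, 31.6 and 34.0 RPKM with Bic/4AP, against 34.7, 36.7 and 38.3 RPKM with TTX and fell by a small margin (deposited log2 change -0.18 ± 0.05, adjusted p = 0.00772). Relative to the median gene its log2 change was 0.18, of the opposite sign, and a median shift gave 0.42. Slc12a5, which encodes the chloride exporter KCC2, fell to 23.4 ± 0.448 RPKM with Bic/4AP against 33.3 ± 0.575 RPKM with TTX (normalized log2 changes -0.33 and -0.32) (turned to 0.11 by a median shift), and Lhfpl4, which encodes a partner of GABA-A receptors and neuroligin, to 15.6 ± 0.386 RPKM with Bic/4AP against 28.6 ± 0.315 RPKM with TTX (normalized log2 changes -0.49 and -0.44).

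Adhesion genes rose more often than they fell, and release genes depended on the scaling. Of 39 synaptic adhesion genes, 20 rose and 9 fell (51.3% and 23.1%). Slitrk2, which encodes a leucine-rich repeat protein of synapses, had 31.1, 31.7 and 36.0 RPKM with Bic/4AP, against 12.03, 12.4 and 11.4 RPKM with TTX (relative log2 change 1.75 ± 0.06, adjusted p = 2.3e-08), and Lrrc4c, which encodes the netrin-G ligand NGL-1, rose to 44.1 ± 1.69 RPKM with Bic/4AP against 21.2 ± 0.460 RPKM with TTX. Ephb2, an ephrin receptor gene of excitatory synapses, had 6.73, 6.95 and 7.88 RPKM with Bic/4AP, against 24.7, 24.4 and 22.3 RPKM with TTX (relative log2 change -1.24 ± 0.08, adjusted p = 2.78e-08, normalized log2 changes -1.04 and -0.89). Its TTX libraries stood at more than 3 times the mean of its Bic/4AP libraries. Igsf21, an inhibitory synapse adhesion gene, fell to 15.1 ± 3.36 RPKM with Bic/4AP against 32.5 ± 1.44 RPKM with TTX (normalized log2 changes -0.79 and -0.72). Of 45 vesicle and release genes tested, 29 were higher and 11 lower as deposited, but 11 rose and 8 fell (24.4% and 17.8%). Quantile normalization gave 16 higher and 23 lower, and loess normalization 14 higher and 26 lower. The median of the class was 0.68 on the relative scale and -0.09 after quantile normalization. Slc17a6, which encodes the vesicular glutamate transporter VGLUT2, had 50.8, 46.5 and 47.8 RPKM with Bic/4AP, against 18.5, 17.3 and 17.5 RPKM with TTX (relative log2 change 1.76 ± 0.05, adjusted p = 6.66e-09). Syt4, an activity-regulated synaptotagmin gene, rose to 186 ± 4.51 RPKM with Bic/4AP against 60.7 ± 2.84 RPKM with TTX (normalized log2 changes 0.86 and 0.69). Doc2a, which encodes a calcium sensor of release, fell to 7.57 ± 0.661 RPKM with Bic/4AP against 23.3 ± 0.826 RPKM with TTX (normalized log2 changes -0.93 and -0.80), and Rimbp2, which encodes a scaffold of the active zone, to 11.96 ± 0.351 RPKM with Bic/4AP against 28.3 ± 0.365 RPKM with TTX (normalized log2 changes -0.78 and -0.68). Snap25, a SNARE gene and neuron marker, was higher as deposited (183 ± 4.40 RPKM with Bic/4AP against 87.6 ± 6.54 RPKM with TTX), with a log2 change of 0.21 after quantile normalization and no call after loess.

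Channel genes held members in both directions, in shares not far from those of all genes. Of 24 sodium and calcium channel genes 7 rose and 7 fell (29.2% and 29.2%), and of 55 potassium and Hcn channel genes 16 rose and 19 fell (29.1% and 34.5%). Kcnj2, which encodes the inward rectifier Kir2.1, had 21.9, 22.5 and 29.1 RPKM with Bic/4AP, against 8.41, 8.75 and 8.53 RPKM with TTX (relative log2 change 1.77 ± 0.10, adjusted p = 2.48e-07). Kcnj9, which encodes the G-protein-gated rectifier GIRK3, had 2.50, 1.87 and 1.62 RPKM with Bic/4AP, against 13.2, 12.8 and 11.8 RPKM with TTX (relative log2 change -1.83 ± 0.13, adjusted p = 1.07e-07, normalized log2 changes -1.54 and -1.347). Kcnj2 and Kcnj9, both of the inward rectifier family, thus moved in opposite directions. Kcna1, a Kv1 channel gene, rose to 68.7 ± 0.734 RPKM with Bic/4AP against 33.2 ± 1.97 RPKM with TTX. Cacna2d1 and Cacnb4, auxiliary calcium channel subunit genes, rose to 53.4 ± 1.80 RPKM with Bic/4AP against 31.1 ± 1.16 RPKM with TTX and to 52.8 ± 1.73 RPKM with Bic/4AP against 31.3 ± 0.382 RPKM with TTX. The T-type calcium channel genes Cacna1h and Cacna1i fell to 5.80 ± 0.960 RPKM with Bic/4AP against 16.8 ± 1.27 RPKM with TTX (normalized log2 changes -0.70 and -0.56) and to 3.20 ± 0.294 RPKM with Bic/4AP against 8.34 ± 0.882 RPKM with TTX (normalized log2 changes -0.38 and -0.31). Of 43 calcium signalling genes tested, 12 rose and 11 fell (27.9% and 25.6%). Vsnl1, which encodes a neuronal calcium sensor, rose to 148 ± 6.25 RPKM with Bic/4AP against 72.9 ± 4.29 RPKM with TTX (normalized log2 changes 0.26 and 0.12), and Ppp3r1, the regulatory subunit gene of calcineurin, to 146 ± 3.29 RPKM with Bic/4AP against 75.1 ± 4.71 RPKM with TTX (normalized log2 changes 0.20 and 0.056). Itpka, which encodes an inositol trisphosphate kinase of dendritic spines, fell to 10.0 ± 1.05 RPKM with Bic/4AP against 26.98 ± 2.21 RPKM with TTX (normalized log2 changes -0.89 and -0.77), and Camkk1, which encodes an upstream kinase of CaM kinases, to 8.39 ± 0.417 RPKM with Bic/4AP against 24.5 ± 1.02 RPKM with TTX (normalized log2 changes -0.91 and -0.79).

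Genes that write and remove DNA methylation, a subject of the series, split by enzyme. Of 24 genes tested, 8 rose and 6 fell (33.3% and 25%). Tet2, which encodes a dioxygenase that oxidizes 5-methylcytosine, had 32.5, 32.6 and 32.2 RPKM with Bic/4AP, against 17.7, 18.5 and 17.7 RPKM with TTX. Tet3, its paralogue, had 37.7, 41.2 and 41.0 RPKM with Bic/4AP, against 23.8, 24.8 and 23.9 RPKM with TTX. All Bic/4AP libraries of both lay above all TTX libraries (relative log2 change 1.18 ± 0.04, adjusted p = 4.67e-08 for Tet2 and relative log2 change 1.07 ± 0.05, adjusted p = 1.95e-07 for Tet3). Tet1 had 18.3, 17.9 and 15.8 RPKM with Bic/4AP, against 16.8, 17.8 and 16.8 RPKM with TTX. Its groups overlapped and it was not called as deposited (deposited log2 change 0.01 ± 0.07, adjusted p = 0.872), whereas its log2 change was 0.52 after quantile and 0.56 after loess normalization. Dnmt3a, which encodes a de novo methyltransferase abundant in neurons, had 36.4, 36.3 and 37.3 RPKM with Bic/4AP, against 41.0, 42.0 and 42.8 RPKM with TTX. The groups did not overlap and the difference was small (deposited log2 change -0.19 ± 0.04, adjusted p = 0.00107, relative log2 change 0.17). All 3 scalings called it lower, with log2 changes of -0.31 for quantile and -0.30 for loess normalization, but a median shift turned the sign, to 0.41. Dnmt1, the maintenance methyltransferase gene, had 8.69, 8.85 and 7.82 RPKM with Bic/4AP, against 20.6, 20.4 and 19.1 RPKM with TTX and fell (relative log2 change -0.79 ± 0.07, adjusted p = 1.18e-07, normalized log2 changes -0.54 and -0.44). Xrcc1, which encodes a scaffold of base excision repair, fell to 3.03 ± 0.231 RPKM with Bic/4AP against 14.2 ± 0.531 RPKM with TTX (normalized log2 changes -1.19 and -1.03), and Zbtb38, which encodes a methyl-CpG-binding zinc finger protein, to 5.28 ± 0.549 RPKM with Bic/4AP against 14.98 ± 0.702 RPKM with TTX (normalized log2 changes -0.61 and -0.49). Gadd45b, given above, had the largest rise of the class.

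Chromatin genes called under all 3 scalings were more often lower. Of 30 histone acetylation genes 2 rose and 16 fell, of 36 histone methylation genes 4 rose and 15 fell, and of 28 remodelling genes 3 rose and 15 fell. The shares that fell were 53.3%, 41.7% and 53.6%, against 34.0% of all genes. The median levels of these classes were 21.3, 16.2 and 23.4 RPKM. Of genes at like levels, 38.6% fell in the sixth decile (16.8 RPKM) and 40.3% in the seventh (22.0 RPKM). The share of the methylation class thus lay near that of its level. The medians after quantile normalization were -0.33, 0.01 and -0.20, and on the relative scale -0.27, -0.06 and 0.08, so that the sign depends on the scaling for the methylation and remodelling classes. In the methylation class 4 genes were higher and 23 lower as deposited, but 14 were higher and 16 lower after quantile normalization and likewise after loess, so the imbalance there rests on the deposited scaling. In the acetylation class 4 were higher and 20 lower as deposited, 7 and 17 after quantile and 8 and 17 after loess normalization. In the remodelling class these counts were 3 and 23, 10 and 15, and 9 and 15. The size of the imbalance thus depends on the scaling in these classes too. Kdm7a, a histone demethylase gene, had 39.2, 38.02 and 45.2 RPKM with Bic/4AP, against 13.2, 13.0 and 12.4 RPKM with TTX (relative log2 change 1.95 ± 0.07, adjusted p = 1.38e-08). Kdm4b, another demethylase gene, had 9.54, 7.66 and 7.30 RPKM with Bic/4AP, against 31.7, 31.9 and 30.3 RPKM with TTX (relative log2 change -1.46 ± 0.09, adjusted p = 2.4e-08). The 2 demethylases thus moved in opposite directions by more than the spread between libraries. Kdm4a fell to 7.67 ± 0.255 RPKM with Bic/4AP against 26.6 ± 0.155 RPKM with TTX (normalized log2 changes -1.16 and -1.01), and Suv39h2, a histone H3 lysine methyltransferase gene, rose to 6.06 ± 0.877 RPKM with Bic/4AP against 4.05 ± 0.317 RPKM with TTX. Among deacetylase genes Hdac9 rose to 48.3 ± 0.576 RPKM with Bic/4AP against 31.3 ± 1.42 RPKM with TTX, while Hdac8 and Hdac10 fell to 2.06 ± 0.625 RPKM with Bic/4AP against 8.52 ± 1.32 RPKM with TTX (normalized log2 changes -0.98 and -0.88) and to 1.48 ± 0.297 RPKM with Bic/4AP against 7.004 ± 1.03 RPKM with TTX (normalized log2 changes -1.09 and -0.99). The other member of the acetylation class that rose was Sirt1. Smarca5, which encodes the ISWI ATPase that pairs with Baz1a, rose to 43.1 ± 3.02 RPKM with Bic/4AP against 20.8 ± 0.968 RPKM with TTX. Chd1 was the third remodelling gene that rose. Baz1b, the Baz1a paralogue gene, fell to 9.20 ± 0.617 RPKM with Bic/4AP against 25.6 ± 0.793 RPKM with TTX (normalized log2 changes -0.89 and -0.77), and Dpf1, which encodes a subunit of the neuronal BAF complex, to 10.1 ± 1.33 RPKM with Bic/4AP against 27.8 ± 0.844 RPKM with TTX (normalized log2 changes -0.95 and -0.83). The remaining members that rose in the methylation class were Suz12 and Kdm3a.

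Stress and death pathways held members in both directions, and the ER stress shares lay near those of all genes. Of 34 genes of ER stress and the integrated stress response, 8 rose and 10 fell (23.5% and 29.4%). Dnajb9, an ER chaperone gene and XBP1 target, rose to 78.2 ± 6.00 RPKM with Bic/4AP against 35.0 ± 1.48 RPKM with TTX, while Creld2, another ER stress gene, fell to 2.67 ± 0.384 RPKM with Bic/4AP against 13.7 ± 1.78 RPKM with TTX (normalized log2 changes -1.31 and -1.12). Asns, the asparagine synthetase gene and an ATF4 target, was higher as deposited (91.2 ± 1.06 RPKM with Bic/4AP against 60.3 ± 3.60 RPKM with TTX) with a log2 change of -0.0016 after quantile and -0.03 after loess normalization. Of 31 apoptosis and p53 target genes tested, 12 rose and 9 fell (38.7% and 29%). Btg2, an antiproliferative p53 target gene, rose to 27.4 ± 0.520 RPKM with Bic/4AP against 13.2 ± 1.07 RPKM with TTX, and Bnip3, a mitophagy receptor gene, to 89.6 ± 1.30 RPKM with Bic/4AP against 45.7 ± 2.65 RPKM with TTX (normalized log2 changes 0.51 and 0.46). Bbc3, which encodes the proapoptotic BH3 protein PUMA, had 0.783, 0.772 and 0.350 RPKM with Bic/4AP, against 7.72, 7.60 and 6.01 RPKM with TTX (relative log2 change -1.95 ± 0.16, adjusted p = 2.72e-07). It passed the filter only through the TTX libraries. Bad, another BH3 gene, fell to 6.66 ± 0.733 RPKM with Bic/4AP against 24.3 ± 1.49 RPKM with TTX (normalized log2 changes -1.17 and -1.004). Of 28 heat shock genes, 6 rose and 5, Hsf1, Hspb1, Hspa2, Stip1 and Ahsa1, fell (21.4% and 17.9%). Dnajb4, an HSP40 cochaperone gene, rose to 79.2 ± 4.76 RPKM with Bic/4AP against 33.3 ± 0.938 RPKM with TTX. Hsf1, which encodes the master heat shock factor, fell to 7.32 ± 0.462 RPKM with Bic/4AP against 18.5 ± 1.94 RPKM with TTX (normalized log2 changes -0.58 and -0.46), and Hspb1, which encodes the small heat shock protein HSP27, to 1.66 ± 1.05 RPKM with Bic/4AP against 5.49 ± 0.951 RPKM with TTX (normalized log2 changes -0.75 and -0.69). Of 25 NF-kappaB and interferon genes tested, 6 rose and 7 fell (24% and 28%), and 8 listed genes lay below the filter, Tnf and Socs3 among them. Rel, an NF-kappaB subunit gene, rose to 12.5 ± 1.56 RPKM with Bic/4AP against 2.52 ± 0.694 RPKM with TTX, and B2m, the light chain gene of MHC class I, to 71.5 ± 5.56 RPKM with Bic/4AP against 31.9 ± 1.36 RPKM with TTX. Stat2, a factor gene of the interferon response, fell to 3.48 ± 0.386 RPKM with Bic/4AP against 19.03 ± 1.26 RPKM with TTX (normalized log2 changes -1.51 and -1.29), and Nfkbib, an NF-kappaB inhibitor gene, to 6.19 ± 0.147 RPKM with Bic/4AP against 15.8 ± 0.278 RPKM with TTX (normalized log2 changes -0.50 and -0.39).

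**Figure D3:**
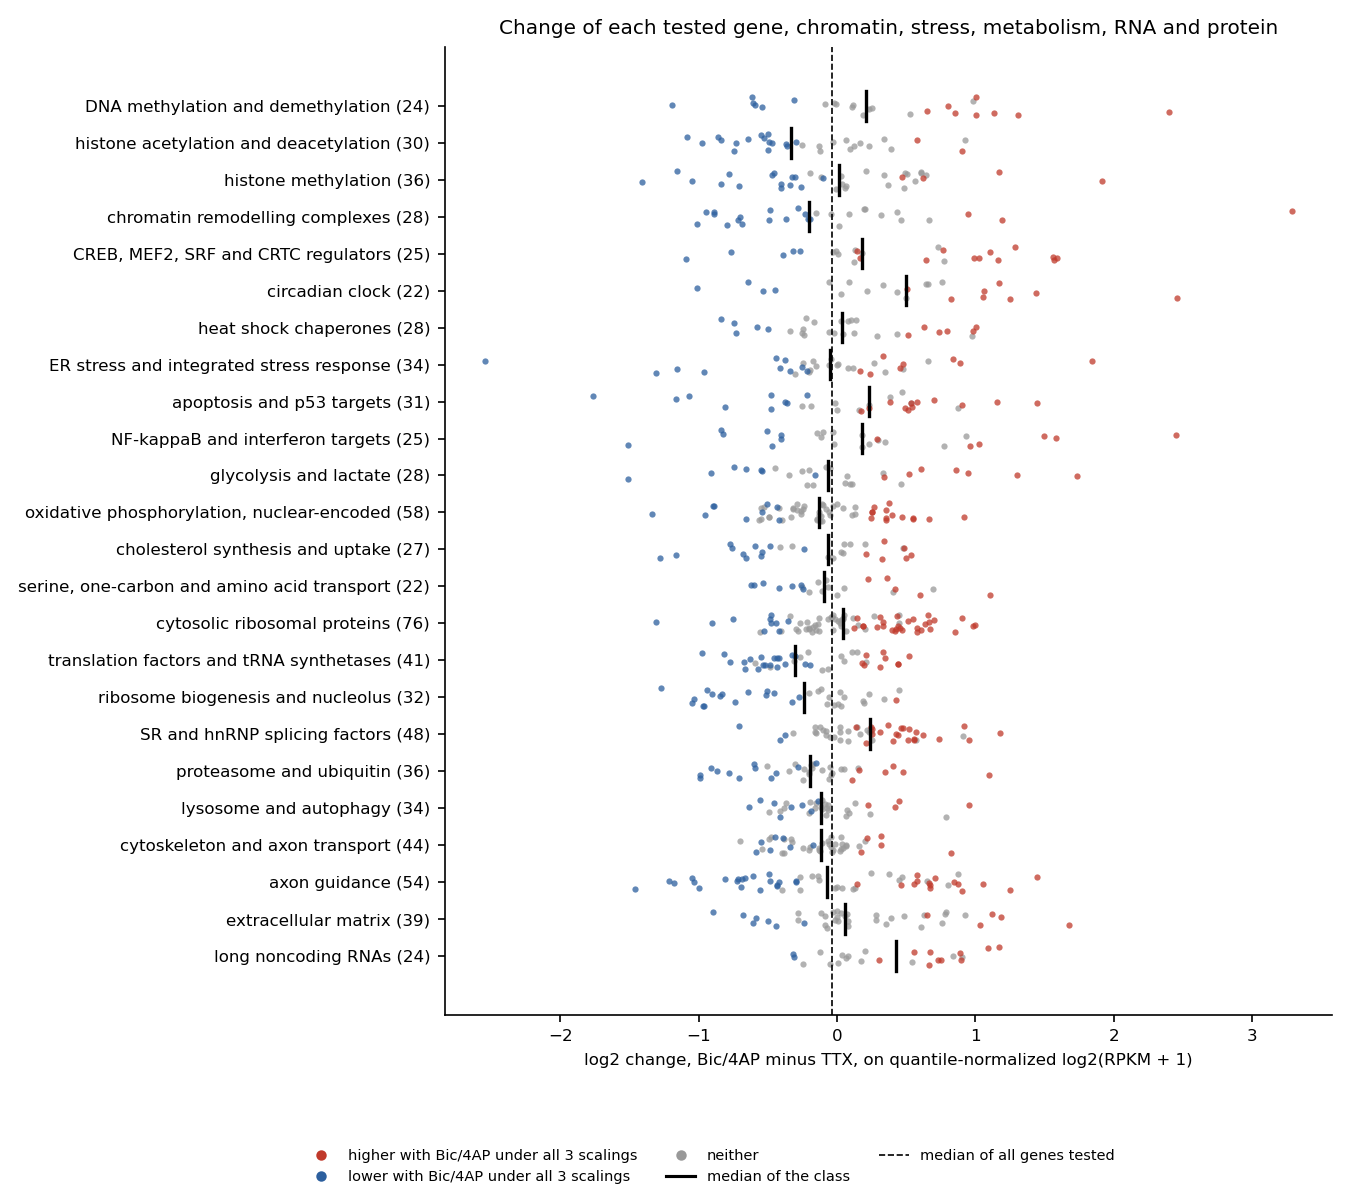
Log2 change of each tested gene, Bic/4AP minus TTX, after quantile normalization, in 24 chromatin, stress, metabolic, RNA, protein, guidance and noncoding classes, coloured by the call under all 3 scalings; bars are class medians and the dashed line is the median of all genes (-0.04). Medians of -0.33 for histone acetylation and -0.31 for translation factors and tRNA synthetases lie at the low end, and 0.50 for clock genes at the high end.

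Genes of energy metabolism called under all 3 scalings showed no common direction, and the balance of calls depended on the scaling. Of 28 glycolysis and lactate genes, 17 were higher and 10 lower as deposited, and 7 rose and 7 fell (25% and 25%). Slc2a1, which encodes the glucose transporter GLUT1, had 24.8, 24.9 and 28.0 RPKM with Bic/4AP, against 10.6, 11.4 and 8.84 RPKM with TTX (relative log2 change 1.62 ± 0.09, adjusted p = 2.55e-07). Slc16a1, which encodes the monocarboxylate transporter MCT1, rose to 62.9 ± 2.56 RPKM with Bic/4AP against 24.7 ± 0.394 RPKM with TTX. The phosphofructokinase gene Pfkl had 4.82, 5.10 and 5.58 RPKM with Bic/4AP, against 25.3, 25.4 and 24.1 RPKM with TTX (relative log2 change -1.71 ± 0.08, adjusted p = 8.49e-09, normalized log2 changes -1.51 and -1.30). The transporters thus lay higher and this enzyme of the pathway lower, each with groups that did not overlap. Pfkfb4, which encodes a regulator of phosphofructokinase, fell to 2.79 ± 0.481 RPKM with Bic/4AP against 10.8 ± 1.05 RPKM with TTX (normalized log2 changes -0.91 and -0.79). Of 58 nuclear genes of oxidative phosphorylation, 35 were higher and 11 lower as deposited. Quantile normalization gave 16 higher and 33 lower, and loess normalization 14 higher and 35 lower. Under all 3 scalings 14 rose and 9 fell (24.1% and 15.5%), and the quantile-normalized median was -0.13. Atp5l, an ATP synthase subunit gene, rose to 88.2 ± 7.57 RPKM with Bic/4AP against 41.8 ± 0.768 RPKM with TTX (normalized log2 changes 0.67 and 0.60), and Ndufa4 to 159 ± 4.71 RPKM with Bic/4AP against 77.5 ± 2.77 RPKM with TTX (normalized log2 changes 0.26 and 0.084). The complex I subunit genes Ndufb7 and Ndufs7 fell to 20.2 ± 1.72 RPKM with Bic/4AP against 50.8 ± 3.04 RPKM with TTX and to 23.2 ± 1.84 RPKM with Bic/4AP against 45.0 ± 2.58 RPKM with TTX. Of 27 cholesterol genes, 6 rose and 11 fell (22.2% and 40.7%). Idi1 and Msmo1, which encode enzymes of the synthesis pathway, rose to 107 ± 11.0 RPKM with Bic/4AP against 50.02 ± 2.37 RPKM with TTX (normalized log2 changes 0.54 and 0.47) and to 142 ± 1.45 RPKM with Bic/4AP against 67.4 ± 4.05 RPKM with TTX (normalized log2 changes 0.32 and 0.22). Mvd, which encodes another enzyme of the same pathway, fell to 17.8 ± 1.21 RPKM with Bic/4AP against 45.8 ± 2.54 RPKM with TTX, and Srebf1, a lipid synthesis factor gene, to 4.48 ± 0.930 RPKM with Bic/4AP against 13.7 ± 1.55 RPKM with TTX (normalized log2 changes -0.68 and -0.55). Of 22 serine, one-carbon and amino acid genes, 5, Slc38a2, Slc38a1, Slc3a2, Slc7a11 and Psat1, rose and 7 fell (22.7% and 31.8%), with the glutamine transporter gene Slc38a2 at 51.3 ± 1.59 RPKM with Bic/4AP against 32.0 ± 1.45 RPKM with TTX and the enzyme gene Phgdh of serine synthesis at 7.66 ± 0.730 RPKM with Bic/4AP against 18.6 ± 2.02 RPKM with TTX (normalized log2 changes -0.54 and -0.42). Mthfd2, which encodes a mitochondrial folate enzyme, fell to 11.2 ± 0.681 RPKM with Bic/4AP against 25.0 ± 0.160 RPKM with TTX (normalized log2 changes -0.62 and -0.53).

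Ribosome biogenesis genes that changed mostly fell and splicing genes that changed mostly rose. Of 32 ribosome biogenesis genes, 1, Npm1, rose and 16 fell (3.1% and 50%). As deposited 1 was higher and 29 lower, against 5 and 19 after quantile and 5 and 16 after loess normalization. The median was -0.37 on the relative scale and -0.24 after quantile normalization. Rrp9, which encodes a protein of the U3 particle that processes ribosomal RNA, had 4.89, 4.39 and 4.50 RPKM with Bic/4AP, against 21.4, 19.7 and 19.3 RPKM with TTX (relative log2 change -1.55 ± 0.08, adjusted p = 1.86e-08, normalized log2 changes -1.27 and -1.08). Polr1b, an RNA polymerase I subunit gene, fell to 3.65 ± 0.247 RPKM with Bic/4AP against 14.0 ± 0.800 RPKM with TTX (normalized log2 changes -0.94 and -0.80). Npm1, the nucleophosmin gene, rose to 62.1 ± 2.03 RPKM with Bic/4AP against 38.8 ± 1.58 RPKM with TTX (normalized log2 changes 0.43 and 0.38). Of 41 translation factor and tRNA synthetase genes, 9 rose and 20 fell (48.8% down), with a median of 0.21 on the relative scale and -0.31 after quantile normalization, so that its sign depends on the scaling. Vars, the valyl-tRNA synthetase gene, had 6.49, 6.81 and 6.11 RPKM with Bic/4AP, against 22.1, 21.2 and 21.3 RPKM with TTX (relative log2 change -1.23 ± 0.07, adjusted p = 1.94e-08, normalized log2 changes -0.98 and -0.83). Eef2k, which encodes the calcium-dependent kinase of elongation factor 2, fell to 6.59 ± 0.725 RPKM with Bic/4AP against 15.8 ± 1.04 RPKM with TTX (normalized log2 changes -0.43 and -0.32), and Eif4g2, an initiation factor gene, rose to 90.9 ± 0.744 RPKM with Bic/4AP against 47.7 ± 2.72 RPKM with TTX (normalized log2 changes 0.44 and 0.39). Of 76 ribosomal protein genes, 29 rose and 10 fell (38.2% and 13.2%). Rpl39 and Rps29 rose to 114 ± 2.96 RPKM with Bic/4AP against 49.5 ± 2.08 RPKM with TTX (normalized log2 changes 0.64 and 0.55) and to 46.7 ± 2.68 RPKM with Bic/4AP against 25.8 ± 1.06 RPKM with TTX, while Rpl36 and Rpl8 fell to 12.6 ± 1.15 RPKM with Bic/4AP against 38.3 ± 1.38 RPKM with TTX and to 43.3 ± 1.73 RPKM with Bic/4AP against 62.9 ± 4.58 RPKM with TTX, with Rpl8 turned to 0.072 by a median shift. Ribosomal protein genes have many processed pseudogenes, and the sources used here do not give how shared reads were counted, so these values are uncertain. Of 48 SR and hnRNP splicing genes, 22 rose and 3, Hnrnpm, Srsf4 and Hnrnpul1, fell (45.8% up), with a quantile-normalized median of 0.24. Hnrnpa3 had 50.9, 49.1 and 50.9 RPKM with Bic/4AP, against 26.3, 26.0 and 26.2 RPKM with TTX (relative log2 change 1.28 ± 0.04, adjusted p = 1.59e-08). Ptbp2, a splicing repressor gene of neurons, rose to 82.1 ± 2.74 RPKM with Bic/4AP against 49.4 ± 2.47 RPKM with TTX (normalized log2 changes 0.25 and 0.22), and Hnrnpm and Srsf4 fell to 18.4 ± 0.538 RPKM with Bic/4AP against 35.3 ± 0.951 RPKM with TTX and to 6.47 ± 0.442 RPKM with Bic/4AP against 15.002 ± 0.281 RPKM with TTX (normalized log2 changes -0.37 and -0.26). Any difference between the classes was not tested.

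Protein turnover and structure depended on the scaling. Of 36 proteasome and ubiquitin genes, 20 were higher and 12 lower as deposited, but 6 rose and 12 fell (16.7% and 33.3%). Quantile normalization gave 7 higher and 24 lower, and loess normalization 6 higher and 24 lower. The proteasome subunit gene Psmb2 rose to 88.6 ± 1.29 RPKM with Bic/4AP against 49.4 ± 2.70 RPKM with TTX (normalized log2 changes 0.34 and 0.30), while Psmb5 and Psmc3 fell to 21.3 ± 1.59 RPKM with Bic/4AP against 43.8 ± 1.02 RPKM with TTX and to 26.1 ± 1.98 RPKM with Bic/4AP against 49.2 ± 3.04 RPKM with TTX. Of 34 lysosome and autophagy genes tested, 4, Lamp2, Gabarapl2, Gabarap and Ctsb, rose and 8 fell (11.8% and 23.5%), with the lysosomal membrane gene Lamp2 at 49.6 ± 4.16 RPKM with Bic/4AP against 25.9 ± 0.579 RPKM with TTX and the autophagy gene Atg7 at 7.59 ± 0.214 RPKM with Bic/4AP against 17.6 ± 0.834 RPKM with TTX (normalized log2 changes -0.46 and -0.34). Gabarapl2 of the same class rose to 93.6 ± 2.94 RPKM with Bic/4AP against 49.1 ± 1.02 RPKM with TTX (normalized log2 changes 0.42 and 0.37), and Glb1, a lysosomal galactosidase gene, fell to 12.6 ± 1.65 RPKM with Bic/4AP against 22.9 ± 0.609 RPKM with TTX (normalized log2 changes -0.34 and -0.27). Of 44 cytoskeleton and transport genes, 31 were higher and 8 lower as deposited. Quantile normalization gave 9 higher and 24 lower, and loess normalization 6 higher and 32 lower. Under all 3 scalings 5, Dcx, Dpysl2, Kif1b, Kif5b and Spock1, rose and 7 fell (11.4% and 15.9%). Kif21b and Klc2, kinesin genes, fell to 32.1 ± 1.59 RPKM with Bic/4AP against 41.9 ± 0.982 RPKM with TTX and to 24.2 ± 1.09 RPKM with Bic/4AP against 34.9 ± 1.32 RPKM with TTX, both turned by a median shift (0.22 and 0.092). Of 54 axon guidance genes tested, 15 rose and 21 fell (27.8% and 38.9%), with the ephrin gene Efna2 at 3.33 ± 0.844 RPKM with Bic/4AP against 14.96 ± 1.03 RPKM with TTX (normalized log2 changes -1.18 and -1.01) and the semaphorin gene Sema6c at 3.07 ± 0.329 RPKM with Bic/4AP against 13.0 ± 0.922 RPKM with TTX (normalized log2 changes -1.05 and -0.90). Of 39 extracellular matrix genes tested, 5, Acan, Hapln1, Vcan, Col25a1 and Adamts1, rose and 7 fell (12.8% and 17.9%). Acan, which encodes aggrecan of perineuronal nets, had 10.4, 11.3 and 13.8 RPKM with Bic/4AP, against 4.81, 5.56 and 5.20 RPKM with TTX (relative log2 change 1.41 ± 0.12, adjusted p = 9.47e-06). Hapln1, which encodes a link protein of such nets, rose to 105 ± 6.28 RPKM with Bic/4AP against 46.7 ± 3.34 RPKM with TTX (normalized log2 changes 0.65 and 0.57), and the laminin gene Lamb1 and the matrix protease gene Mmp14 fell to 8.24 ± 0.777 RPKM with Bic/4AP against 20.4 ± 0.578 RPKM with TTX (normalized log2 changes -0.61 and -0.50) and to 2.58 ± 0.406 RPKM with Bic/4AP against 7.37 ± 1.44 RPKM with TTX (normalized log2 changes -0.50 and -0.44).

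The balance of noncoding genes depended on the scaling. Of 461 tested genes that RefSeq types as lncRNA, 150 were higher and 163 lower as deposited, 244 higher and 51 lower after quantile normalization, and 260 higher and 43 lower after loess normalization. Under all 3 scalings 148 of them rose and 41 fell (32.1% and 8.89%), and of 13053 protein-coding genes 2653 rose and 4628 fell (20.3% and 35.5%). The lncRNA genes had a median level of 2.57 RPKM and the coding genes one of 15.7 RPKM, and the difference between the types was not tested. Transcribed pseudogenes rose for 63 and fell for 20 of 149. MicroRNA genes rose for 34 and fell for 29 of 146, but libraries selected by poly(A) do not measure mature miRNAs, and reads over these genes can come from a host transcript. Of 24 tested members of a list of known long noncoding RNAs, 10 rose and 2, Snhg12 and Snhg5, fell (41.7% and 8.33%). Dlx6os1, an antisense RNA of the Dlx5/6 locus of interneurons, rose to 71.6 ± 3.81 RPKM with Bic/4AP against 33.3 ± 1.94 RPKM with TTX, and Rian, an imprinted RNA of the Dlk1-Meg3 locus, to 80.6 ± 1.61 RPKM with Bic/4AP against 39.8 ± 2.48 RPKM with TTX (normalized log2 changes 0.67 and 0.60). The sources used here do not state whether counting used the strand, so an antisense gene and its partner cannot be told apart. Snhg5, a small nucleolar RNA host gene, fell to 14.5 ± 1.18 RPKM with Bic/4AP against 24.8 ± 0.329 RPKM with TTX (normalized log2 changes -0.31 and -0.26).

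Markers of cell types were read in the same libraries. All 12 general neuron markers were measured, with summed levels of 1177, 1189 and 1213 RPKM with Bic/4AP and 739, 749 and 815 RPKM with TTX, so the defining markers of the labelled cell type were present. As deposited 8 of the 12 were higher and 1, Rbfox3, lower, but 2, Syt1 and Elavl4, rose and none fell under all 3 scalings. With quantile normalization 7 were higher and 4 lower, and with loess 3 higher and 5 lower. In bulk RNA, fewer cells of a type and less RNA per cell cannot be told apart. Excitatory markers summed to 608, 602 and 582 RPKM with Bic/4AP and 457, 455 and 474 RPKM with TTX. Of these 12 markers 4 rose, Slc17a6 (given above), Tbr1 and Neurod1 among them, and 2, Emx1 and Neurod2, fell (33.3% and 16.7%), Neurod2 being turned to 0.16 by a median shift. Emx1, a factor gene of cortical and hippocampal progenitors and pyramidal neurons, fell to 7.53 ± 0.880 RPKM with Bic/4AP against 22.6 ± 0.485 RPKM with TTX (normalized log2 changes -0.88 and -0.76). Interneuron markers rose for 8 and fell for 1, Slc32a1, of 17 (47.1% and 5.88%).

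Other cell types were present at lower levels. Astrocyte markers summed to 333, 340.0 and 385 RPKM with Bic/4AP and 310, 303 and 287 RPKM with TTX, with 5 of 13 (Sox9, Slc1a2, Slc1a3, Slc4a4 and Gja1) rising and 4 (Aldh1l1, Fgfr3, Aldoc and Ndrg2) falling, or 38.5% and 30.8%. Sox9, a factor gene of astrocytes and progenitors, rose to 22.6 ± 1.46 RPKM with Bic/4AP against 7.09 ± 0.871 RPKM with TTX. In the other direction Aldh1l1, a folate enzyme gene of astrocytes, fell to 3.07 ± 0.491 RPKM with Bic/4AP against 9.48 ± 1.76 RPKM with TTX (normalized log2 changes -0.61 and -0.51), and Fgfr3, a fibroblast growth factor receptor gene, to 1.74 ± 0.226 RPKM with Bic/4AP against 5.33 ± 0.521 RPKM with TTX (normalized log2 changes -0.61 and -0.53). Oligodendrocyte lineage markers summed to 22.2, 22.3 and 28.7 RPKM with Bic/4AP and 52.1, 51.5 and 43.0 RPKM with TTX. Of its 8 genes, 3 (Pdgfra, Sox10 and Mog) lay below the filter, and of the 5 tested 0 rose and 2, Mbp and Cspg4, fell (0% and 40%). Cspg4 passed the filter only through the TTX libraries, so its fall follows in part from the filter. Mbp, the myelin basic protein gene, fell to 4.15 ± 0.417 RPKM with Bic/4AP against 12.4 ± 0.992 RPKM with TTX (normalized log2 changes -0.62 and -0.49). Olig1, a large part of the sums, was lower as deposited alone (14.1 ± 3.18 RPKM with Bic/4AP against 23.6 ± 2.22 RPKM with TTX). Microglia markers summed to 33.6, 38.1 and 38.8 RPKM with Bic/4AP and 28.1, 24.3 and 24.7 RPKM with TTX, with Cx3cr1, P2ry12 and Tmem119 below the filter. Of 6 tested, 2, Cd68 and C1qc, rose and 1, Csf1r, fell (33.3% and 16.7%). Cd68, a large part of the sums, stood at 25.3 ± 1.19 RPKM with Bic/4AP against 13.2 ± 0.449 RPKM with TTX. Vascular and fibroblast markers summed to 64.3, 61.7 and 47.5 RPKM with Bic/4AP and 66.4, 66.3 and 55.1 RPKM with TTX, and these ranges overlapped. Progenitor and cycling markers summed to 235, 232 and 262 RPKM with Bic/4AP and 161, 158 and 161 RPKM with TTX, with 3 of 10 tested rising and 2 (Nes and Mcm2) falling, or 30% and 20%. Vim and Pcna were a large part of these sums. Vim stood at 133 ± 10.3 RPKM with Bic/4AP against 71.8 ± 4.47 RPKM with TTX and had no call after loess normalization. Pcna rose to 57.6 ± 6.48 RPKM with Bic/4AP against 32.1 ± 1.70 RPKM with TTX. Ttr had 16.5, 18.2 and 21.3 RPKM with Bic/4AP, against 0.648, 0.276 and 0.254 RPKM with TTX (relative log2 change 4.19 ± 0.15, adjusted p = 1.28e-08). It passed the filter only through the Bic/4AP libraries. The other 14 choroid plexus and ependyma markers summed to 23.8, 23.2 and 25.4 RPKM with Bic/4AP and 34.3, 31.2 and 26.1 RPKM with TTX. Single markers moved both ways. Of 8 tested, 4, Ttr, Kl, Clic6 and Enpp2, rose and 1, Aqp1, fell (50% and 12.5%). Kl and Clic6, like Ttr, passed the filter only through the Bic/4AP libraries, so these rises follow in part from the filter. Sostdc1 was lower as deposited alone (4.51 ± 0.930 RPKM with Bic/4AP against 10.1 ± 1.26 RPKM with TTX). The part of cell composition in the gene values above was not tested.

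**Figure D4:**
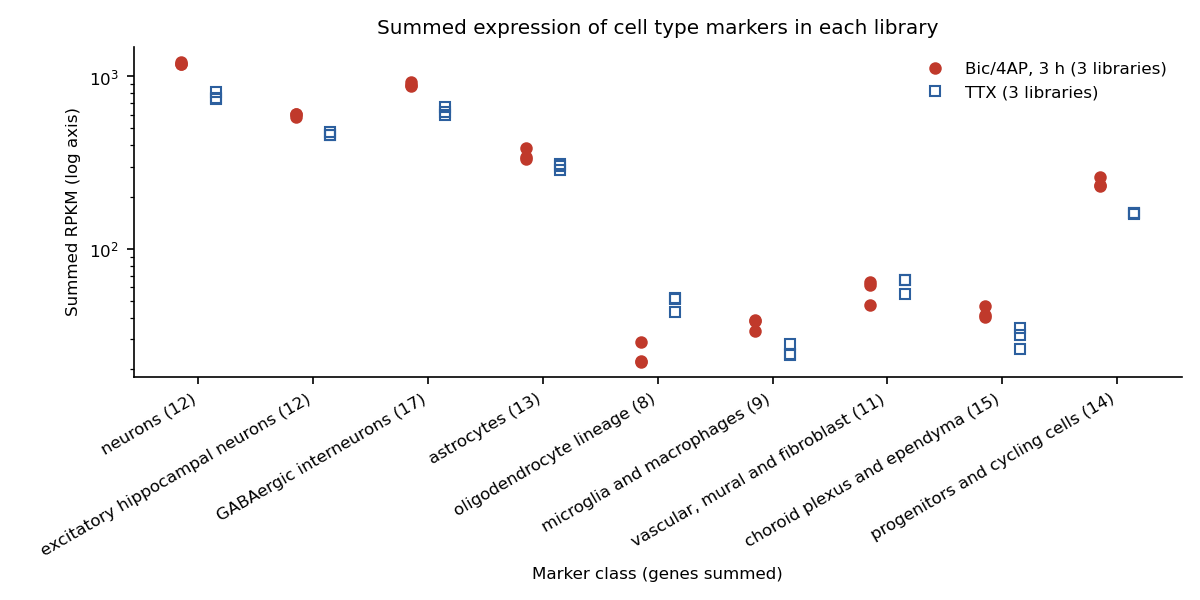
Summed RPKM (log axis) of the markers of 9 cell types in each of the 3 Bic/4AP libraries (filled circles, left) and the 3 TTX libraries (open squares, right); the number of genes summed stands in brackets. Neuron sums lie between 1177 and 1213 with Bic/4AP and between 739 and 815 with TTX, while oligodendrocyte sums lie lower with Bic/4AP, at 22.2 to 28.7 against 43.0 to 52.1. All sums are of deposited values, and of 5 oligodendrocyte genes tested 2, Mbp and Cspg4, fell under all 3 scalings. Cspg4 passed the filter only through the TTX libraries.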

How the data were processed

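Per the labels' protocols, libraries of poly(A) RNA were prepared with a directional NEBNext Ultra kit. The deposited values are RPKM from the authors, 1 per gene and library. The submitters' processing notes name mm10 as the build, with TopHat, Bowtie2 2.2.4 and SAMtools 0.1.19 among the tools. Treatment of duplicate reads and use of the strand in counting are not given in the sources used here.

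RPKM of 18671 of 18671 genes above 0 in 3 or more libraries were whole multiples of 1 read within 0.15 read, which gave read numbers and depths. Of 24062 lines, 4 with a repeated name were left out, and 27 names turned into dates were kept as written. RefSeq symbols matched 22550 of 24058 names, and synonyms matched 1326 more. No mitochondrial transcript is among the names, so RNA quality was not read from them.

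The 6 libraries entered 1 fit of limma 3.58.1 (R 4.3.3) with its variance trend on log2(RPKM + 1), a scale that understates changes of low genes. Calls were made at a Benjamini-Hochberg adjusted p of 0.05 over 13959 genes. SEs are the fit's and SDs are over 3 libraries. Bic/4AP libraries 1 and 2 differed by little more than counting noise (chi-square per gene 1.03 over 11956 genes, p = 0.00458, against 2.05 and 2.08 with library 3) and were kept as 3 samples.

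The 49 gene classes and the members were chosen with earlier results of these data known, and the rule of 3 scalings was added after the data were seen. Named genes are the 8 highest and 8 lowest log2 changes among called genes with a mean of 5 RPKM in a group, separate ranges and no name starting Mir, Snor or Scarna (a small nucleolar RNA with another name, DQ267100, passed), then up to 2 genes of each class and direction, plus in every case Arc, Bdnf, Fos, Npas4, Dnmt3a, Dnmt1 and the Tet genes; members of a class behind most counts of 5 or fewer are named too, and the text gives most of those that the rule names. The others are not reported here.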

Additional observations from a re-analysis of the deposited data

How the results depend on the processing

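Of the 4 counts of called genes, those higher and lower stayed within 1.5 times under both pseudocounts, both filters, recovered reads tested with voom, thinned reads, a ceiling correction added after seeing the data, and quantile and loess normalization. With a median shift they came to 7075 higher and 3934 lower. At 2-fold or more, 534 higher and 3020 lower as deposited became 1123 and 942 with quantile normalization, 1235 and 638 with loess normalization, and 2488 and 857 with a median shift, and a filter of 5 RPKM left 342 higher. Of the genes higher as deposited, 306 were called lower with quantile and 346 with loess normalization, and of those lower as deposited, 666, 864 and, with a median shift, 1417 were called higher. Leaving out 1 library gave 3429 to 3706 higher, 7566 to 8001 lower, 528 to 546 higher by 2-fold or more and 2857 to 3229 lower by 2-fold or more. Averaging Bic/4AP libraries 1 and 2 into 1, chosen after seeing the data, gave 3572 higher and 7936 lower. With the replicate block 3630 genes were higher and 7967 lower, and it changed no call of a named gene. Same-numbered libraries did not deviate together (r = -0.00088, 0.025 and 0.065), so the numbers are not taken as pairs.

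Of 257 named genes, the log2 change turned sign under loess normalization for Asns (-0.030), Dlx1 (0.46), Dusp7 (0.18), Eef1a1 (-0.27), Gabrd (0.049), Hsp90aa1 (-0.090), Myc (0.33), Plk3 (0.075), Rbfox3 (0.23), Srf (0.10) and Stmn2 (-0.32). Under quantile normalization it did so for Asns (-0.0016), Dlx1 (0.39), Dusp7 (0.16), Eef1a1 (-0.063), Myc (0.27), Rbfox3 (0.22) and Srf (0.0091). Under a median shift it did so for Ahsa1 (0.16), Aldoc (0.011), Cck (0.26), Cgref1 (0.076), Cnih3 (0.38), Cort (0.30), Creb3 (0.031), Csnk1d (0.14), Dlx1 (0.36), Dnmt3a (0.41), Dusp7 (0.32), Dusp8 (0.41), Gabbr2 (0.29), Hnrnpul1 (0.0042), Kif21b (0.22), Klc2 (0.092), Myc (0.32), Ndrg2 (0.20), Neurod2 (0.16), Porcn (0.21), Rbfox3 (0.38), Rpl8 (0.072), Slc12a5 (0.11), Slc32a1 (0.42), Snhg12 (0.16), Spred3 (0.20), Stip1 (0.018) and Vegfb (0.15). Tet1 lay between -0.025 and 0.072 with 1 library left out and at -0.018 with Bic/4AP libraries 1 and 2 averaged, and its sign turned without Bic/4AP library 1 or 2 or TTX library 1 or 3. The cause of these turns was not tested. Depth limits low genes of the Bic/4AP libraries, where a single read over 1 kb is worth 0.218 to 0.230 RPKM.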
